A study of Homo sapiens with 4 samples.

Results

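The features described here are 242 abundant entries of a human gene count table whose names end in -AS or -AS and a number, the suffix given to transcripts annotated on the strand opposite a named gene. They were chosen by that suffix and by a mean of at least 100 counts over 4 libraries, with a list of named features, such as MIF-AS1 and GNAS-AS1, left out. Of those named, 24 are in the table and 20 of them reached the mean of 100 counts. They are 242 of 1564 antisense-named features and of 59385 features in the table, and 262 antisense-named features reached the mean of 100 counts before the named ones were left out. The mean count therefore selected them, and the levels below are a description of that choice.

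RNA was sequenced from the human prostate cancer cell line C4-2, an epithelial line grown in RPMI with fetal bovine serum. One group received β-hydroxybutyrate (BHB), a ketone body that the liver releases during fasting, at 50 mM in RPMI for 3 days, and the control group received RPMI medium alone for the same 3 days. Each group held 2 libraries, numbered 1 and 2. Whether the libraries of a group are separate cultures is not stated in the labels. The p-values therefore reflect the spread among these 4 libraries, part or all of which may be technical.

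Natural antisense transcripts are RNAs transcribed from the strand opposite another gene, often a coding gene, and many overlap its exons. Some are known to act on the stability, splicing or transcription of the gene they overlap, and for most no role is known. Because the RNA of both strands maps to the same bases, telling an antisense transcript from its coding partner needs a library that keeps the strand and a count that reads it. The kit was a stranded one per the labels' protocols, but the strand setting of the counting is not given in the sources used here. How much of a count listed under an antisense name came from RNA of the opposite coding gene cannot be told apart in these files, and each value below is the count listed under that name. Counting a stranded library with the opposite strand setting would list coding RNA under the antisense name and antisense RNA under the coding gene, which would exchange the counts within every pair below. Whether that took place was not tested.

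The shared bases are shown for 3 abundant members, because these stretches are read as an antisense exon on one strand and as protein-coding sequence on the other. Positions are GRCh38 in GENCODE release 29. The SLC25A5 stretch lies at chrX:119468516-119468575, with SLC25A5-AS1 on the minus strand. The KIAA0100 stretch lies at chr17:28616618-28616677, with SPAG5-AS1 on the plus strand, and the CTBP1 stretch at chr4:1215991-1216050, with CTBP1-AS on the plus strand. Each stretch of 60 bases is written 5′ to 3′ on each strand, and the 12 bases in capitals are the same genomic bases in both lines of a pair.
SLC25A5-AS1: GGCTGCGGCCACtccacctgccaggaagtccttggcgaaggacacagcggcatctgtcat
SLC25A5: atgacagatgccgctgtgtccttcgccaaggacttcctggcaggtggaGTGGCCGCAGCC
SPAG5-AS1: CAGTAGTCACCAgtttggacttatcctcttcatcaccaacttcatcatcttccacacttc
KIAA0100: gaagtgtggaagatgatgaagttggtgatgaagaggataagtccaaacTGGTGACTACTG
CTBP1-AS: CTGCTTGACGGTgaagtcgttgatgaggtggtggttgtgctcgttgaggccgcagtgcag
CTBP1: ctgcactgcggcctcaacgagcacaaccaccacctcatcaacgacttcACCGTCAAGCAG

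SLC25A5 encodes an ADP/ATP carrier of the inner mitochondrial membrane and CTBP1 a transcriptional corepressor. Each antisense line is the reverse complement of the coding line under it. The SLC25A5 line opens with an atg triplet.

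Total counts were 2272004 and 2233711 in the BHB libraries and 2565080 and 2237634 in the control libraries. The members took 6.61% and 6.56% of the counts of the BHB libraries and 6.15% and 6.87% of those of the control libraries. They held 80.8% of all counts in antisense-named features. Markers of prostate luminal epithelium summed to 10808 and 10534 counts in the BHB libraries and to 13102 and 12950 in the control libraries. The basal markers KRT5 and TP63 and the 4 leukocyte markers PTPRC, CD3E, CD14 and LYZ had no count in any library. Fibroblast, endothelial and neuroendocrine marker sums did not exceed 14 counts in a library. In these bulk libraries, fewer cells of a type and less RNA per cell cannot be told apart.

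PCBP1-AS1, at chr2:69962263-70103220 opposite the gene of an RNA-binding protein, had 9293 and 9475 counts in the BHB libraries and 10305 and 9994 in the control libraries. PCBP1 itself was listed at 32 and 36 counts in the BHB libraries and at 85 and 20 in the control libraries, far below the antisense name in all 4. PRMT5-AS1, opposite the gene of an arginine methyltransferase, had 4357 and 4550 counts in the BHB libraries and 4675 and 4850 in the control libraries. SLC25A5-AS1 had 3488 and 3358 counts in the BHB libraries and 4901 and 4652 in the control libraries. Under TMM scaling over the whole table, SLC25A5-AS1 was lower in both BHB libraries than in both controls, while PCBP1-AS1 and PRMT5-AS1 overlapped between the groups.

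PRC1-AS1, opposite the gene of a microtubule-bundling protein of the central spindle, had 3539 and 3429 counts in the BHB libraries and 4057 and 4311 in the control libraries. SPAG5-AS1 carries the name of a spindle gene, but its exons lie opposite KIAA0100, and it had 3158 and 2851 counts in the BHB libraries and 2855 and 2932 in the control libraries. LIMD1-AS1, opposite the gene of a LIM-domain scaffold, had 2670 and 2529 counts in the BHB libraries and 2396 and 2464 in the control libraries. All 3 overlapped between the groups under TMM scaling. Scaled within the antisense-named features, PRC1-AS1 was lower and LIMD1-AS1 higher in both BHB libraries, and SPAG5-AS1 still overlapped.

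ATP6V0E2-AS1, opposite a subunit gene of the vacuolar proton pump, had 2448 and 2172 counts in the BHB libraries and 2895 and 2335 in the control libraries. PXN-AS1, opposite the paxillin gene of focal adhesions, had 2338 and 2656 counts in the BHB libraries and 2208 and 2163 in the control libraries. PPP3CB-AS1, whose exons lie opposite USP54, had 2264 and 2123 counts in the BHB libraries and 2200 and 2089 in the control libraries. CCDC144NL-AS1 lies opposite USP22, a deubiquitinase gene, and had 1940 and 1843 counts in the BHB libraries against 2396 and 2210 in the control libraries. CTBP1-AS had 1729 and 1530 counts in the BHB libraries and 2377 and 1884 in the control libraries. Under TMM scaling, CCDC144NL-AS1 and CTBP1-AS were lower in both BHB libraries than in both controls, and ATP6V0E2-AS1, PXN-AS1 and PPP3CB-AS1 overlapped between the groups.

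**Figure D1:**
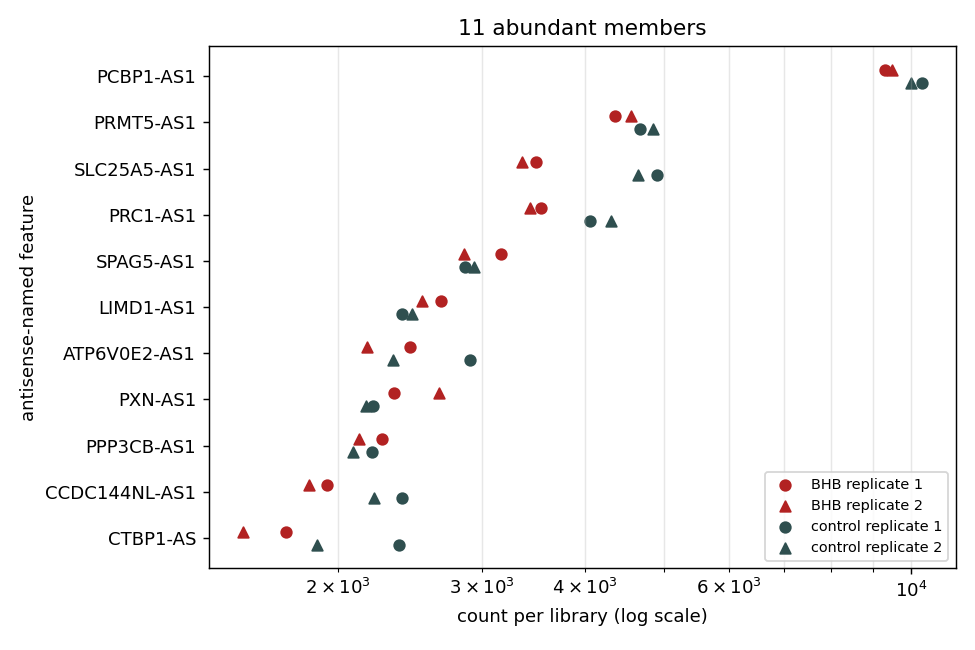
Raw counts per library, on a log axis, of 11 abundant members. Red marks are the BHB libraries and dark marks the control libraries, circles replicate 1 and triangles replicate 2; the PCBP1-AS1 marks lie between 9293 and 10305 counts, and the SLC25A5-AS1 marks of the groups do not overlap.

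Most members were far less abundant. The median mean count was 305, 30 members had at least 1000 counts and 74 had under 200. ERCC8-AS1, TPT1-AS1 and MCPH1-AS1 lay just above the minimum, at means of 104.5, 102.75 and 100.75 counts. GSN-AS1 and PSMB8-AS1, both at 98.5, and MYRF-AS1, at 96.75, lay just under it and are not members. Per kilobase of listed exon length the order changed: RCC2-AS1, opposite a gene that acts in chromosome segregation, had the highest mean at 2883 counts per kilobase, ahead of SLC9A3R1-AS1 at 2763 and RPS6KB2-AS1 at 2336. GABPB1-AS1 had the lowest, at 6.49 counts per kilobase over 17179 bases.

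Most members lay opposite coding exons, which the rule did not ask for, although the suffix itself refers to the opposite strand. Of 242 members, 236 had exon bases opposite the exons of a coding gene. Among all placed antisense-named features, 915 had such an overlap and 550 lay opposite a coding gene's body only. Another 58 only began within 1000 bases of an opposite coding start, and 33 did neither. Of the 262 antisense-named features with a mean of at least 100 counts, 256 had an exon overlap, so it was not particular to the members. The shares below use the rule's own minimum of 100 counts. A mean of at least 100 counts was reached by 28.0% of antisense-named features with such an overlap and by 0.545% of the 550 that lay opposite a coding gene's body without touching its exons. The share was 0.936% without exon overlap, 16.6% with up to 10% of exon bases opposite coding exons, 30.0% from 10 to 25%, 37.4% from 25 to 50% and 37.6% above 50%. These shares include the abundant features set aside by name, and neighbouring features at a locus are not independent, so they are given without a test. Among the members the median overlap was 23.0% of exon bases, 53 had under 10%, and 9, among them RCC2-AS1, RPS6KB2-AS1 and CHMP1B-AS1, lay wholly opposite coding exons.

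**Figure D2:**
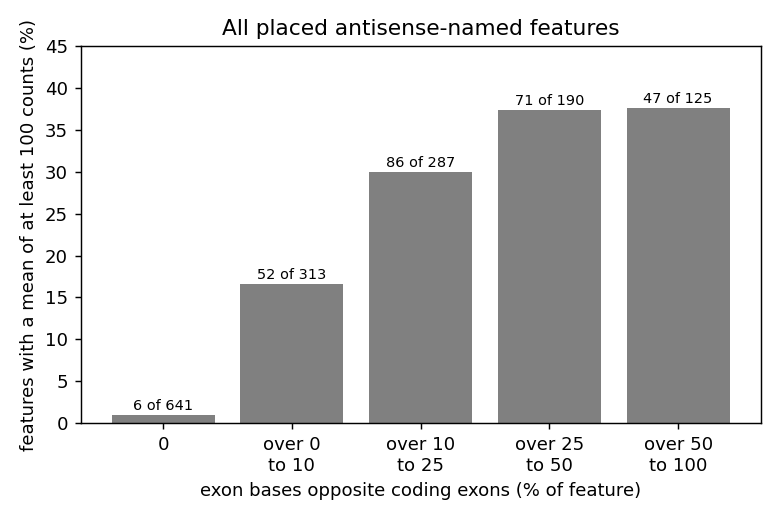
Share of all placed antisense-named features with a mean of at least 100 counts (y axis, %), by the share of their exon bases opposite coding exons (x axis, %). Numbers over the bars are features; the share was 0.936% with no overlap and 37.6% above 50%.

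The 6 members without exon overlap were SHROOM3-AS1, CPB2-AS1, SAP30L-AS1, OTUD6B-AS1, LYRM4-AS1 and GAS5-AS1. SHROOM3-AS1 lies within the body of an actin-organising gene and was the most abundant of them, with 1062 and 1049 counts in the BHB libraries and 832 and 963 in the control libraries. CPB2-AS1 had 486 and 476 counts in the BHB libraries and 427 and 495 in the control libraries. GAS5-AS1 carries the name of a noncoding host gene of small nucleolar RNAs and had 159 and 229 counts in the BHB libraries and 160 and 137 in the control libraries. No coding exon lies opposite these features in GENCODE 29, and none of the 6 was called over the whole table or within the class of antisense-named features.

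Counts under the members exceeded those of the coding gene opposite in 229 of 236 pairs, and in 233 pairs per kilobase. Members had to reach a mean of 100 counts and the opposite genes had no minimum, so the rule itself favours such an excess. It is given as a description of the chosen pairs. The opposite genes had a median of 22.75 counts, 108 of the pairs had an opposite gene under 20 counts, and the median ratio was 14.7. BACE1-AS, opposite a protease gene of amyloid processing, had 873 and 921 counts in the BHB libraries and 903 and 933 in the control libraries, while BACE1 had 691 and 598 in the BHB libraries and 594 and 706 in the control libraries. TSPOAP1-AS1 stood much further above its partner. It had 803 and 840 counts in the BHB libraries and 1216 and 963 in the control libraries, while RNF43 opposite it had 2 and 2 in the BHB libraries and 2 and 0 in the control libraries. The coding gene held more counts in 7 pairs. The widest of these was LGALS8-AS1, with 141 and 185 counts in the BHB libraries and 185 and 172 in the control libraries, opposite LGALS8, a galectin gene, with 1004 and 950 in the BHB libraries and 800 and 824 in the control libraries.

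**Figure D3:**
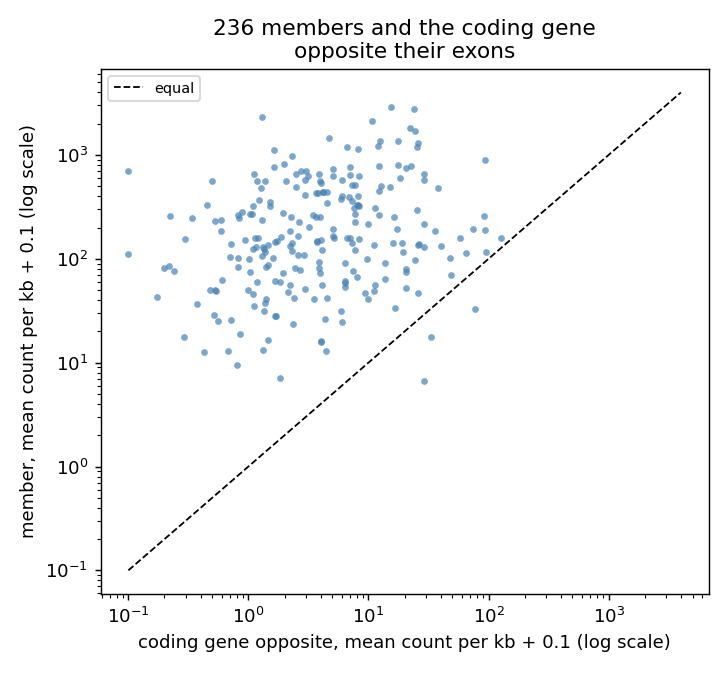
Mean count per kilobase of 236 members (y axis) against that of the coding gene opposite their exons (x axis), both on log axes after adding 0.1. The dashed line marks equal values, and 233 points lie above it. Only the members had to reach a minimum count.

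The pairs can also be read within each library, where no scaling enters. Here too, the minimum of 100 counts was set for the members and not for their partners. The median log2 ratio of member to the gene of its name, both per kilobase, over 239 pairs was 5.96 and 5.92 in the BHB libraries and 5.30 and 6.59 in the control libraries. The BHB medians fell inside the span of the control medians, and the median over pairs of the difference (mean of the BHB ratios minus mean of the control ratios) was −0.04. That difference was −0.52 without control replicate 1 and 0.54 without control replicate 2, so its sign rested on the control libraries.

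Control libraries differed from each other more than BHB libraries did, and in opposite directions for members and their coding partners. Of 242 members, 59 had a larger share of control replicate 1 than of control replicate 2, with a median log2 ratio of −0.16 (SD 0.27 over members). The 128 opposite coding genes with a mean of at least 20 counts had a median ratio of 0.82 (SD 1.14). That mean was taken over all libraries, control replicate 1 included. A gene high only in control replicate 1 could pass it, so the minimum itself can favour a high ratio. How much of the 0.82 comes from this was not tested. Between BHB replicate 1 and BHB replicate 2 the medians were 0.02 (SD 0.19) for members and −0.02 (SD 0.45) for opposite genes. CEBPB-AS1, opposite a leucine-zipper factor gene, differed most between controls, with 178 and 76 counts there and 139 and 103 counts in the BHB libraries. EMC1-AS1 differed least after division by library totals, with 204 and 241 counts in the BHB libraries and 242 and 211 in the control libraries.

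**Figure D4:**
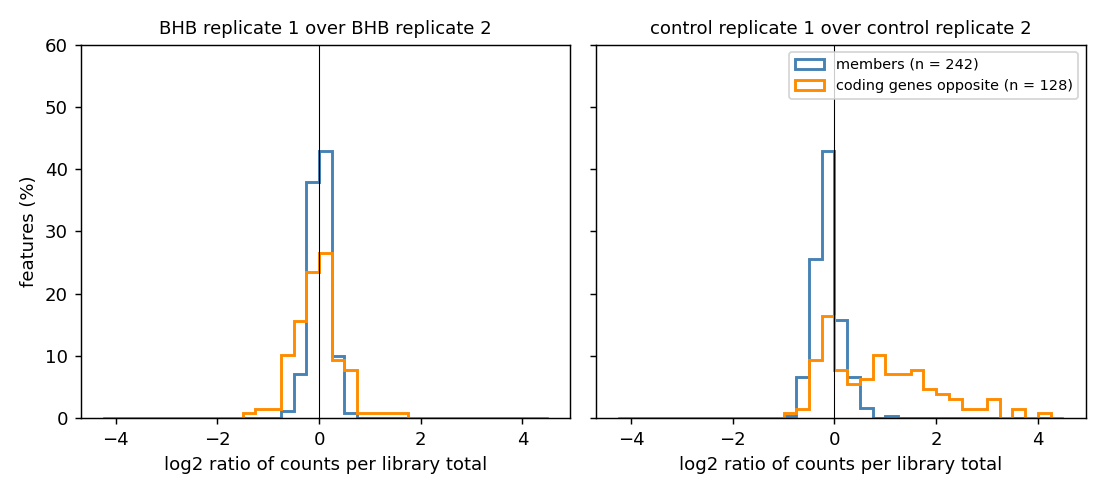
Distribution of the log2 ratio of replicate 1 to replicate 2, each divided by its library total (x axis), as a share of features (y axis, %), for BHB on the left and control on the right. The BHB medians are 0.02 for members and −0.02 for opposite genes, and the control medians are −0.16 and 0.82.

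The comparison of BHB with control was fitted over the whole table of 9295 features that passed a filter on low counts, and all 242 members passed it. Features were called at a Benjamini-Hochberg adjusted p under 0.05. No member was called higher and none lower with BHB by edgeR's quasi-likelihood test, and percent called over all features was 0% in each direction. DESeq2 and limma-voom also called 0 members. At an unadjusted p under 0.05, edgeR had 5 members, DESeq2 3 and limma-voom 5, beside 2.26%, 1.48% and 2.56% of all features. The 5 by edgeR were RNF213-AS1, higher with BHB, and EXOSC10-AS1, RAB11B-AS1, LIX1L-AS1 and STARD7-AS1, lower. The median log2 fold change (BHB over control) of the members was −0.00, with a range of −0.81 to 0.61 and a median standard error of 0.27, beside −0.03 over all features.

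Single control libraries decided these values. Without control replicate 2, 83 members were called higher and 3 lower, with a median log2 fold change of 0.27, beside 9.43% of all features called higher and 7.21% lower. Without control replicate 1, 1 was called higher and 48 lower, with a median of −0.23, beside 5.84% and 6.38% of all features. Without BHB replicate 1 or BHB replicate 2, no member was called. Both BHB libraries lay above both controls in 28 members (11.6%) and below both in 45 (18.6%) after TMM scaling, beside 15.1% and 14% of all features. With scaling by total counts the split was 62 higher and 57 lower, beside 19.6% and 13.8% of all features. With upper-quartile scaling it was 40 and 40, beside 17.3% and 12.8%.

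Fitted over antisense-named features alone, with library sizes and TMM factors from that class, the controls lay closer together: the median log2 difference of the members between control replicate 1 and control replicate 2 was −0.03, against −0.46 under the scaling of the whole table. The common dispersion was 0.00976 in the class and 0.113 in the whole table. In this fit edgeR called 6 members higher (2.48%) and 12 lower (4.96%) with BHB, beside 2.33% and 4.67% of all 514 features in it, so the members were called about as often as the class they belong to. Their median log2 fold change was −0.03, none was beyond 1 in size, and the median standard error was 0.15. A fit within the class describes changes relative to other antisense-named features.

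Among the members called lower, LIX1L-AS1 had 780 and 772 counts in the BHB libraries and 1175 and 1262 in the control libraries. Its exons lie opposite RBM8A, a core gene of the exon junction complex. The difference within the class was −0.64 ± 0.12 (log2, SE), with an edgeR adjusted p of 5.14e-05. RBM8A had 35 and 52 counts in the BHB libraries and 122 and 38 in the control libraries, which overlap. SLC25A5-AS1, with the counts given above, averaged 18404 ± 126 CPM of the class in BHB libraries and 25402 ± 131 CPM in control libraries (SD, n = 2 each). The difference within the class was −0.46 ± 0.09 on the log2 scale (SE, edgeR adjusted p = 9.5e-05). Counts of SLC25A5 were 35 and 29 in the BHB libraries and 81 and 16 in the control libraries, so the groups overlapped there.

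EXOSC10-AS1, opposite a ribonuclease gene of the nuclear exosome, had 129 and 118 counts in the BHB libraries and 300 and 166 in the control libraries. Within the class it differed by −0.89 ± 0.19 on the log2 scale (SE, edgeR adjusted p = 0.000903), the largest in size among the 18 called members. The size rested on control replicate 1, and without that library it was −0.45. RAB11B-AS1, opposite a GTPase gene of recycling endosomes, had 192 and 150 counts in the BHB libraries and 291 and 264 in the control libraries, with a log2 fold change of −0.68 ± 0.16. STARD7-AS1, opposite the gene of a phosphatidylcholine carrier, had 504 and 426 counts in the BHB libraries and 878 and 573 in the control libraries. The control spread of STARD7-AS1 was wide, as for EXOSC10-AS1.

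DHRS4-AS1, opposite a short-chain dehydrogenase gene, had 245 and 191 counts in the BHB libraries and 344 and 329 in the control libraries. BSG-AS1 lies opposite the basigin gene, whose protein escorts lactate and ketone transporters to the cell surface, and had 105 and 113 counts in the BHB libraries and 169 and 163 in the control libraries. BSG, 1 of the 7 opposite genes with more counts than its member, had 230 and 199 counts in the BHB libraries and 340 and 255 in the control libraries. The edgeR adjusted p was 0.0409 for BSG-AS1. The other members called lower were RAET1E-AS1, UCKL1-AS1, TSPOAP1-AS1, LAMTOR5-AS1 and CTBP1-AS, with log2 fold changes between −0.70 and −0.37. Without control replicate 1 the log2 fold change was −0.31 for RAET1E-AS1, −0.33 for STARD7-AS1, −0.26 for TSPOAP1-AS1, −0.19 for LAMTOR5-AS1 and −0.24 for CTBP1-AS.

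Among the members called higher, RNF213-AS1 had 358 and 292 counts in the BHB libraries and 252 and 194 in the control libraries. It lies opposite RNF213, a ubiquitin ligase gene, and its log2 fold change within the class was 0.56 ± 0.16 (SE, edgeR adjusted p = 0.0115). DSG2-AS1, opposite a desmosomal cadherin gene, had 635 and 658 counts in the BHB libraries and 428 and 502 in the control libraries. EGFR-AS1, opposite the epidermal growth factor receptor gene, had 472 and 456 counts in the BHB libraries and 356 and 328 in the control libraries. The groups did not overlap for any of these 3, as for all 18 called members, so this adds no support to the calls. On the scale of the class, 23.3% of all its features lay higher in both BHB libraries than in both controls.

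SLCO4A1-AS1, opposite an organic anion transporter gene, had 671 and 638 counts in the BHB libraries and 481 and 485 in the control libraries. SLC25A25-AS1, opposite a mitochondrial ATP-Mg/phosphate carrier gene, had 319 and 300 counts in the BHB libraries and 213 and 237 in the control libraries. CHMP1B-AS1, wholly opposite the gene of an ESCRT-III subunit, had 571 and 655 counts in the BHB libraries and 464 and 467 in the control libraries. The log2 fold changes of the 5 members called higher other than RNF213-AS1 lay between 0.41 and 0.49, with edgeR adjusted p between 0.0126 and 0.0472.

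**Figure D5:**
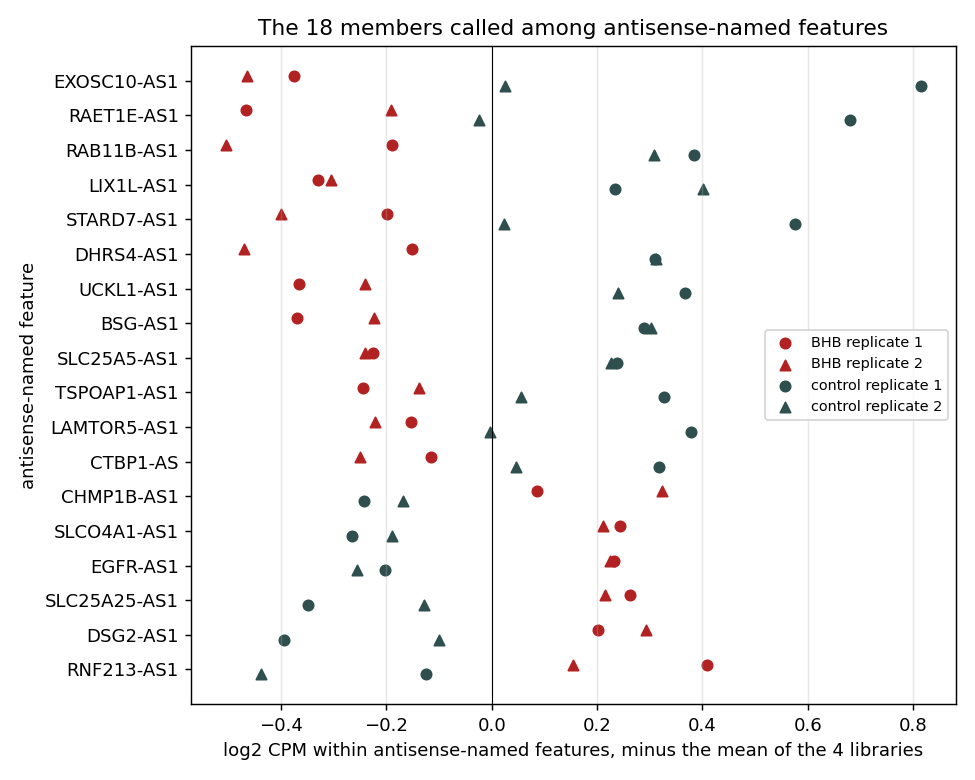
The 18 members called among antisense-named features: log2 CPM of each library within that class, minus the mean of its 4 libraries (x axis). Red marks are BHB and dark marks control, circles replicate 1 and triangles replicate 2; both BHB marks lie beyond both control marks in all 18, and the control marks of EXOSC10-AS1, RAET1E-AS1 and STARD7-AS1 are wide apart.

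None of the 18 calls was kept in all 4 fits that leave out a library. Of them, 14 were kept without control replicate 2, 2 without control replicate 1, 2 without BHB replicate 1 and 0 without BHB replicate 2, and a fit with 3 libraries assumes that the lone library varies like the other group. Without control replicate 2, 9 members were called higher and 24 lower, beside 2.9% and 7.07% of the class. Without control replicate 1 they were 0 higher and 2 lower, beside 0% and 0.546% of the class. Without BHB replicate 1 they were 0 and 2, beside 1.1% in each direction, and without BHB replicate 2 they were 0 and 0, beside 0.181% and 0.363%. On the scale of the class, 49 members (20.2%) lay higher in both BHB libraries than in both controls and 78 (32.2%) lower, beside 23.3% and 25.9% of the class.

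The largest positive differences without a call were in WDFY3-AS1, ZNF561-AS1 and TAB3-AS2. WDFY3-AS1, opposite an autophagy adaptor gene, had 138 and 143 counts in the BHB libraries and 86 and 112 in the control libraries. ZNF561-AS1 had 162 and 134 counts in the BHB libraries and 110 and 101 in the control libraries. TAB3-AS2, wholly opposite the gene of a kinase adaptor in inflammatory signalling, had 208 and 174 counts in the BHB libraries and 149 and 124 in the control libraries. Each rests on low counts, and the log2 fold changes within the class were 0.52, 0.50 and 0.50.

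Some members can be grouped by the opening letters of the gene name they carry, which leaves out relatives whose symbols open otherwise and takes no account of the gene opposite. Of 6 members named for UBE, UBR, USP or RNF genes of the ubiquitin system, RNF213-AS1 was called higher, and the median log2 fold change within the class was 0.22. Without control replicate 1 that median was 0.06. TSPOAP1-AS1, opposite the ubiquitin ligase gene RNF43 but not named for it, was called lower, and CCDC144NL-AS1, opposite USP22, was not called. Of 4 members whose names open with SLC, SLC25A25-AS1 and SLCO4A1-AS1 were called higher, SLC25A5-AS1 was called lower and SLC9A3R1-AS1 was not called. The 8 members named for ZNF or ZBTB zinc finger genes had no call and a median of 0.05, as did the 9 named for MAP, PPP or PTP genes of kinases, phosphatases and their subunits. The 4 named for RAB11B, ARHGEF19 or ARAP1 had a median of −0.24, with RAB11B-AS1 called lower. For these 4 the median was −0.12 without control replicate 1 and −0.40 without control replicate 2. Members opposite genes of a shared function were also put into 7 groups after their values were seen. These groups were picked by hand and hold 78 of the 242 members, so other members of like function may be missing from them. Among 14 opposite genes of RNA processing and translation, EXOSC10-AS1 and LIX1L-AS1 were called lower and none higher, with a median of −0.20. PABPC4-AS1, opposite a poly(A)-binding protein gene, had 1617 and 1515 counts in the BHB libraries and 1800 and 1809 in the control libraries, without a call. The members as a whole had a median of −0.03, and 2.33% of the class was called higher and 4.67% lower. Of the other groups by gene function, adhesion, cytoskeleton and surface receptors (13 members) had a median of 0.16. In it 2 were called higher and 1 lower. Nutrient and stress signalling (6 members, 1 called lower) had −0.25, and membrane traffic (8 members, 1 called higher and 1 lower) −0.15. Cell division had −0.02, mitochondria −0.04, and chromatin and transcription −0.10.

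Of 50 antisense RNAs that are widely studied in cancer and other fields, 47 were among the features counted and 16 were members. EGFR-AS1 and SLCO4A1-AS1 were called higher and CTBP1-AS lower, beside 2.33% of the class called higher and 4.67% lower. The median log2 fold change of the 16 within the class was 0.08. OIP5-AS1 had 420 and 408 counts in the BHB libraries and 451 and 422 in the control libraries. HIF1A-AS1, beside the gene of the hypoxia factor, had 484 and 396 counts in the BHB libraries and 410 and 409 in the control libraries. AFAP1-AS1, beside an actin-filament protein gene, had 795 and 799 counts in the BHB libraries and 703 and 738 in the control libraries. None of these 3 was called. Once scaled within the class, HIF1A-AS1 overlapped between the groups, OIP5-AS1 lay lower in both BHB libraries and AFAP1-AS1 higher.

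Among 12 members opposite genes of mitochondrial proteins, grouped after their values were seen, SLC25A25-AS1 was called higher and SLC25A5-AS1 lower. In the whole class 2.33% was called higher and 4.67% lower. PINK1-AS, opposite a kinase gene of mitophagy, had 504 and 467 counts in the BHB libraries and 524 and 547 in the control libraries. Among 6 members opposite cell division genes none was called, and HMMR-AS1 had 271 and 392 counts in the BHB libraries and 293 and 410 in the control libraries, a wider gap between replicates than between groups. Among 19 opposite chromatin and transcription genes only CTBP1-AS was called. EHMT2-AS1, opposite a histone methyltransferase gene, had 785 and 842 counts in the BHB libraries and 895 and 887 in the control libraries.

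The members' starts often faced a coding start. Of 242 members, 139 (57.4%) began within 1000 bases of the start of a coding gene on the other strand, as did 44.0% of 1314 other placed antisense-named features. RNF213-AS1 began 1 base from a start of ENDOV, VIM-AS1 19 bases from one of VIM and LIMD1-AS1 52 bases from one of SACM1L. Promoter sequence of 250 bases before to 50 after the start, from RefSeq (GRCh38.p14), was matched for 168 members, with a median GC content of 59.8%, against 55.0% for 899 other antisense-named features and 58.3% for all 27305 promoters. The letters GGGCGG, on either strand, were present in 48.8% of member promoters, 35.6% of other antisense-named ones and 44.6% of all promoters. The letters CCGGAAG, on either strand, were present in 11.9%, 6.79% and 10.7% in the same order. These shares describe the letters in the windows, and the member promoters lay close to those of all genes.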

How the data were processed

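RNA sequencing counts from C4-2 cells were analysed in 2 BHB and 2 control libraries. Raw, unnormalized counts and exon lengths of 59385 features were deposited by the authors. Per the submitters' processing notes, the tools were HISAT2 2.2.1, featureCounts 2.0.3, edgeR and limma, on the build GRCh38 or hg38. The sources used here do not give the annotation release, the strand setting or how multiply mapped reads were treated.

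Features were placed on GENCODE 29 (GRCh38): 193 members by name and 49 through their current symbol, with 152 of the 242 having the same exon length there. For 12 members, exons also overlap coding exons on the same strand, and 4 coding genes lie opposite 2 members each, so these counts may be shared.

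BHB was compared with control by edgeR 4.0.16 in R 4.3.3 (filterByExpr, TMM, robust quasi-likelihood F-test, Benjamini-Hochberg adjusted p under 0.05 over all 9295 tested features), with DESeq2 1.42.0 and limma 3.58.1 (voom) as alternatives and a fit of the 514 antisense-named features alone as another. Only the whole-table edgeR fit was tested on simulated data, and the class fit, the left-out fits and the alternatives were not. Ratios used 0.5 added to each count, over pairs whose mean counts together reached 20. Members named are the 12 with the highest mean (1 item is not reported here), the 8 with the largest change in each direction among those with both BHB libraries beyond both controls, the 5 most and 5 least different between controls, the widely studied ones, and the 3 on each side of the minimum. Members called in the class and those opposite genes of a shared function were added after their values were seen. The members and lists were chosen with earlier results of these data known.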

Additional observations from a re-analysis of the deposited data

How the results depend on the processing

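Counts of calls depended on which control library was present. Over the whole table, edgeR called 0 features higher and 0 lower; with 1 library left out the counts ranged from 0 to 1035 higher and from 0 to 791 lower, and in the fit of antisense-named features they were 12 and 24. For members the whole-table counts ranged from 0 to 83 higher and 0 to 48 lower with 1 library left out, against 6 and 12 in the class fit. Within the class the ranges were 0 to 9 higher and 0 to 24 lower. The members' median log2 fold change ranged from −0.23 to 0.27. With 1 library left out, members beyond both controls ranged from 30 to 171 higher and 48 to 179 lower. With every library in, they were 28 higher and 45 lower under TMM scaling of the whole table. They were 62 higher under total counts, and 49 higher and 78 lower under class scaling. Leaving out a library leaves fewer values to separate, which by its construction raises the counts beyond both controls. The cause of the other shifts was not tested. The median log2 ratio of member to the gene of its name, 5.86 per kilobase, was 4.18 on plain counts and 4.50 where that gene had a mean of at least 20 counts; its difference between groups ranged from −0.52 to 0.54 with 1 library left out. With replicate number as a block, the class fit called 10 members higher and 19 lower, all 18 calls included, and the whole-table block fit called 0. The labels give the numbers no shared culture or day, and replicate 1 deviations of BHB and control correlated at 0.25 over 242 members. Class scaling of counts beyond both controls, and the left-out and block fits within the class, were chosen after seeing the data. No fold change given for a single member changed sign under these settings; 230 of those values stayed on their side of the threshold, 54 lost a call and 34 gained one.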
